A study of Caenorhabditis elegans with 6 samples.

Results

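The Hedgehog-related and patched-related genes of Caenorhabditis elegans were followed in whole adult worms after feeding RNAi. Members were the rows whose gene symbol starts with grd-, grl-, wrt-, hog-, ptr- or ptc- and whose gene and locus were written the same way in all 7 deposited tables. This gave 57 loci of 56 genes among 15796 loci, made up of 13 grd, 16 grl, 9 wrt, 1 hog, 16 ptr and 2 ptc loci. A further 10 loci with such symbols carried differing labels between tables and were left out: grd-1, grl-1, grl-14, grl-18, ptr-1, ptr-3, ptr-10, ptr-15, ptr-17 and ptr-22. The worms were Bristol N2 with a wild-type genotype, grown at 20 °C, and L4 larvae were placed on RNAi plates with 6 mM IPTG before adults of the following generation were taken as whole-worm pellets. The 6 RNA-seq libraries formed 2 groups of 3 biological replicates, tag-208(RNAi) as the control and prx-5(RNAi). Since the control bacteria also target a gene (tag-208, listed as sorb-1), a difference can come from either group. Pellets were of whole bodies, so fewer cells of a type and less RNA per cell cannot be told apart in any value below.

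The worm has no close counterpart of the Hedgehog ligand of flies and vertebrates. It has instead several families of secreted proteins, among them the warthog (wrt), groundhog (grd), ground-like (grl) and hog proteins, some of which carry the self-cleaving Hog domain of Hedgehog. Its Patched proteins (ptc) and the larger set of patched-related proteins (ptr) are membrane proteins with a sterol-sensing domain. Many members of both sets are made in the epidermis and in the cells that line openings of the body, and a number of them are needed for moulting, when a new cuticle is built. Levels are given in FPKM, fragment counts scaled to the length of the transcript and to the size of the library, which allows levels of different genes to be compared.

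RNA of prx-5, which codes for the import receptor of peroxisomes, went against the label of its group. It had 4.48, 4.73 and 3.50 FPKM in control replicates 1, 2 and 3 and 14.9, 21.3 and 23.5 in replicates 1, 2 and 3 of the group labelled prx-5 RNAi (log2 fold change 1.98 ± 0.22 SE, limma adjusted p = 0.00866). The control target sorb-1 had 11.5, 12.9 and 6.96 FPKM in control libraries and 13.6, 14.8 and 25.6 in the prx-5-labelled ones. The sorb-1 groups did not overlap and their means were 1.72-fold apart, without a call (limma adjusted p = 0.232). All directions follow the labels. Neither an exchange of the labels of the 2 groups nor another source of the prx-5 reads was tested. An exchange would turn every direction given here. Control replicate 2 stood apart from the other 2 control libraries. On the second principal component it lay at -55.7, while control replicates 1 and 3 lay at 9.48 and 10.1. Prx-5-labelled replicate 1 also stood apart from its group, at 37.6 against 2.27 and -3.71 in replicates 2 and 3. On the first component (52.1% of the variance) prx-5-labelled replicates 1, 2 and 3 lay at 7.39, 54.2 and 59.9. Control replicates 1, 2 and 3 lay there at -51.2, -15.4 and -54.8. The number of reads is not known, but the steps of the lowest values put the depth of the libraries between 0.767 and 1.26 of that of control replicate 1. Of the 8 intestine markers tested, 8 rose in the prx-5-labelled libraries. The summed level of these markers ran from 783 to 1207 FPKM in control libraries and from 2607 to 5642 in the prx-5-labelled ones. The collagen col-19, an adult cuticle gene, fell from 997 ± 35.9 to 294 ± 54.1 FPKM (limma log2 fold change -1.77 ± 0.19 SE, adjusted p = 0.00816).

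In the prx-5-labelled libraries 3 groundhog genes, grd-3, grd-4 and grd-5, fell and the patched-related gene ptr-24 rose. The remaining 46 tested members did not pass the test. Fold changes are on the log2(FPKM + 1) scale, prx-5-labelled minus control, and calls have an adjusted p below 0.05 in a limma fit of the 13347 loci whose mean reached 1 FPKM. Of the 57 members, 50 reached this limit. The other 7, grd-2, grd-12, a first locus of grd-16, grl-20, grl-23, grl-27 and ptr-19, had means from 0.490 to 0.867 FPKM and were not tested. Over all tested loci, 7.49% were called higher and 1.2% lower, 8.69% in either direction. The 4 calls among 50 tested members, 8%, lay near that background as a whole. Other scalings of the libraries gave more even calls over all loci, with 512 higher and 186 lower by median-ratio scaling, 531 and 239 by quantile normalization and 522 and 192 with the authors' constants, against 1000 and 160 here. By sub-family, 3 of 10 tested grd loci were lower, against 0 of 13 grl, 0 of 9 wrt and 0 of 17 ptr and ptc loci. Of the ptr and ptc loci, 1 of 17 was higher. An unadjusted limma p under 0.05 was reached by 10 members, against 21.9% of all tested loci. These were 3 grd, 2 grl, 2 wrt and 3 ptr loci. The groups did not overlap in 3 tested members with higher and 4 with lower prx-5-labelled values. Over all tested loci these shares were 21.2% and 5.8%.

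Among the groundhog genes, grd-3 (WBGene00001692) was the most abundant member of the whole set in the control libraries. Its locus on chromosome IV, from 3439668 to 3440459 in coordinates that match WBcel235, covered 98.4% of this protein-coding gene. It stood at 199, 206 and 212 FPKM in control replicates 1, 2 and 3 and at 75.2, 23.7 and 33.1 in prx-5-labelled replicates 1, 2 and 3. The control values lay close together and every prx-5-labelled value was far below them. The means were 206 ± 6.43 and 44.02 ± 27.4 FPKM (SD, n = 3), 4.68-fold apart. The log2 fold change was -2.37 ± 0.38 (SE, limma adjusted p = 0.0179).

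The second abundant groundhog gene was grd-5 (WBGene00001694), on chromosome V from 8618960 to 8620911. Its FPKM were 120.1, 177 and 152 in the control libraries and 59.8, 33.9 and 41.5 in the prx-5-labelled libraries. The groups did not overlap, and their means were 149.7 ± 28.4 and 45.1 ± 13.3 FPKM (SD, n = 3), 3.32-fold apart. The log2 fold change was -1.73 ± 0.25 (SE, limma adjusted p = 0.0139). This locus spans all of grd-5 and also overlaps the protein-coding gene idpc-2, so reads of the 2 genes may not be fully separated.

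The third was grd-4 (WBGene00001693), a gene of lower level on chromosome X from 8501373 to 8502288. It had 7.77, 5.27 and 9.62 FPKM in the control libraries and 2.88, 0.552 and 1.004 in the prx-5-labelled ones. Here too all control values lay above all prx-5-labelled values, with means of 7.55 ± 2.19 and 1.48 ± 1.23 FPKM (SD, n = 3), 5.11-fold apart. Its log2 fold change was -1.87 ± 0.38 (SE, limma adjusted p = 0.0320). All 3 groundhog calls were lost when control replicate 3, prx-5-labelled replicate 2 or prx-5-labelled replicate 3 was left out (3 to 0 calls), while the whole table then dropped to 78, 155 and 123 calls. Without control replicate 1, grd-5 was the 1 groundhog call kept. Over all the alternatives the log2 fold changes ran from -2.88 to -2.02 for grd-3, from -1.95 to -1.55 for grd-5 and from -2.53 to -1.58 for grd-4.

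The genes grd-3 and grd-4 sit in tandem with other groundhog genes on the same strand. On chromosome IV, grd-13, grd-3 and grd-10 follow each other, with 147 bases between the annotated genes grd-13 and grd-3 and 601 between grd-3 and grd-10. On chromosome X, grd-14 and grd-4 lie 184 bases apart. The neighbours are named here after their values were seen. The gene grd-13 had 12.97, 21.4 and 13.3 FPKM in control libraries and 5.57, 4.71 and 22.3 in the prx-5-labelled ones, so that prx-5-labelled replicate 3 was the highest library of all. The gene grd-10 had 23.5, 54.3 and 25.5 FPKM in control libraries and 11.9, 15.8 and 43.8 in the prx-5-labelled ones. Both groups overlapped in grd-13 and grd-10, with log2 fold changes of -0.78 ± 0.53 and -0.63 ± 0.51 (SE, limma adjusted p = 0.446 and 0.524). On chromosome X, grd-14 had 25.8, 66.5 and 21.3 FPKM in control libraries and 9.73, 19.03 and 24.2 in the prx-5-labelled ones. With overlapping groups, grd-14 missed the limma threshold (log2 -0.97 ± 0.48, SE, adjusted p = 0.298), while the authors' deposited table called it lower (log2 -1.24, q = 0.00264). In grd-13, grd-10 and grd-14 control replicate 2 was the highest control library, by 1.61-, 2.13- and 2.58-fold over the next. In grd-3 and grd-4 it was not, at 0.969 and 0.547 of the highest of the other 2 controls.

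**Figure D1:**
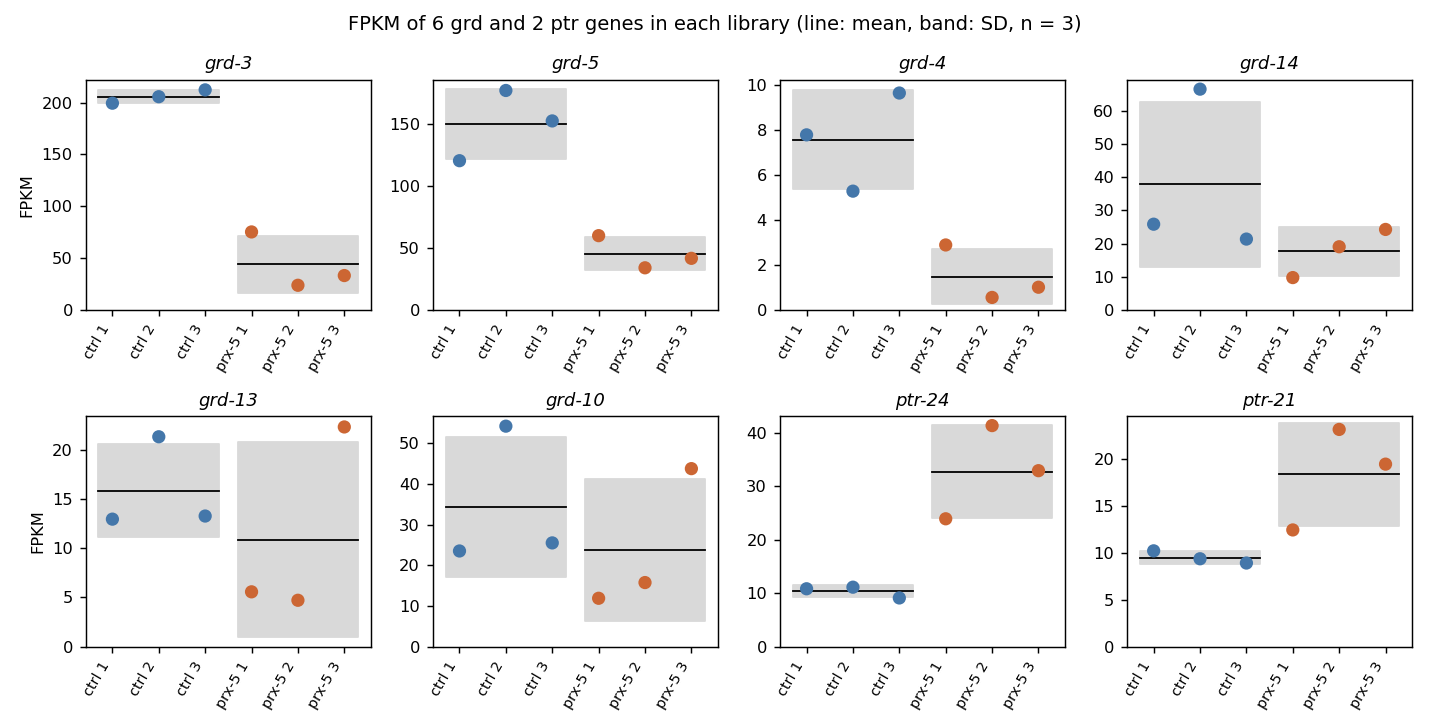
FPKM (linear axis from 0) of 6 groundhog genes and 2 patched-related genes in each of the 6 libraries, control in blue and prx-5-labelled in orange, with the group mean as a line and the SD as a band (n = 3). The groups are apart in grd-3, grd-5, grd-4, ptr-24 and ptr-21 and overlap in grd-14, grd-13 and grd-10.

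The other groundhog loci were low, with means over the 6 libraries from 0.640 to 5.58 FPKM. The gene grd-15 (on a locus that also overlaps cyn-15) had 1.08, 10.7 and 0 FPKM in control libraries and 8.43, 2.09 and 11.1 in the prx-5-labelled ones, and the largest control value lay above 2 of the 3 prx-5-labelled values. Its log2 fold change was 1.29 ± 0.93 (SE, limma adjusted p = 0.472). For grd-11 the FPKM were 0.438, 1.51 and 0.417 against 1.71, 1.10 and 2.23 (log2 0.62 ± 0.32, SE, limma adjusted p = 0.322). A second locus named grd-16, which covers 0% of the annotated gene, was listed at 1.03, 0 and 0 FPKM in control libraries and at 0.448, 6.34 and 2.73 in the prx-5-labelled ones (limma adjusted p = 0.229). It was called higher without prx-5-labelled replicate 1.

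On the receptor side, ptr-24 (WBGene00004238), a patched-related gene that has been tied together with grl-21 to fat storage in the worm, was the 1 member called higher. Its locus on chromosome X, from 13338129 to 13348128, covered 99.0% of the gene. It had 10.8, 11.1 and 9.10 FPKM in control libraries and 23.9, 41.4 and 32.9 in the prx-5-labelled ones. The control values were nearly level, and the lowest prx-5-labelled value was above the highest of them. The means were 10.3 ± 1.09 and 32.7 ± 8.73 FPKM (SD, n = 3), 3.16-fold apart, with a log2 fold change of 1.54 ± 0.22 (SE, limma adjusted p = 0.0142). The call was lost without control replicate 3 (adjusted p = 0.0676), prx-5-labelled replicate 2 (0.0551) or prx-5-labelled replicate 3 (0.0614), and the log2 fold change stayed between 1.36 and 1.79 over all the alternatives. Its reported partner grl-21 had 1.83, 12.5 and 0.545 FPKM in control libraries and 1.87, 6.66 and 10.1 in the prx-5-labelled ones, with overlapping groups (log2 0.68 ± 0.84, SE, limma adjusted p = 0.678). The intestine markers given above rose in the same libraries as ptr-24, and their part in its rise was not tested.

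The next patched-related gene by test was ptr-21, named after its values were seen. It had 10.2, 9.37 and 8.92 FPKM in control libraries and 12.5, 23.2 and 19.5 in the prx-5-labelled ones. The groups did not overlap, but the log2 fold change of 0.84 ± 0.24 (SE) missed the limma threshold (adjusted p = 0.0797), which it passed without prx-5-labelled replicate 1. In the authors' deposited table it was significant (log2 0.82, q = 0.00465). The gene ptr-4, which acts in the apical matrix at moulting, had 0.268, 3.06 and 0.496 FPKM in control libraries and 2.002, 4.11 and 4.68 in the prx-5-labelled ones. Control replicate 2 lay within the prx-5-labelled range, and the log2 fold change was 1.17 ± 0.49 (SE, limma adjusted p = 0.223). The authors' deposited table gave ptr-4 a log2 of 1.34 with a q of 0.0193. The gene ptr-18 was also low in control replicates 1 and 3 alone, at 0.769, 3.76 and 0.824 against 2.49, 3.58 and 5.17 FPKM (log2 0.90 ± 0.44, SE, limma adjusted p = 0.291).

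The genes ptc-1 and ptr-2 were by far the most abundant on the receptor side, and neither was called. The gene ptc-1, a Patched protein needed for cell division in the germline, had 139, 110.6 and 149 FPKM in control libraries and 131, 105.6 and 95.2 in the prx-5-labelled ones. The gene ptr-2 had 109, 94.4 and 131 FPKM in control libraries and 119.9, 87.9 and 79.1 in the prx-5-labelled ones. In both genes control replicate 2 was the lowest control library, and the groups overlapped. The log2 fold changes were -0.27 ± 0.19 for ptc-1 and -0.23 ± 0.21 for ptr-2 (SE, limma adjusted p = 0.461 and 0.573). Within each group, the germline markers ranked the libraries as ptc-1 and ptr-2 did. Their summed level was 3089, 2327 and 3365 FPKM in control replicates 1, 2 and 3 and 3074, 2360 and 1959 in prx-5-labelled replicates 1, 2 and 3. Of the 10 germline markers, 0 passed the limma test (0 had an unadjusted p under 0.05), and their part in the levels of ptc-1 and ptr-2 was not tested. The second Patched gene, ptc-3, which is essential in development, had a far lower level, at 5.13, 7.90 and 5.84 against 6.47, 8.50 and 9.63 FPKM (log2 0.34 ± 0.23, SE, limma adjusted p = 0.442).

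No other patched-related gene was called. The gene ptr-13 was nearly flat, at 6.25, 6.28 and 7.07 FPKM in control libraries and 5.96, 6.20 and 5.80 in the prx-5-labelled ones, without overlap but with a log2 fold change of only -0.11 ± 0.17 (SE, limma adjusted p = 0.740). For ptr-23, a gene tied to cuticle and osmotic responses, the FPKM were 5.97, 8.52 and 5.01 against 4.53, 6.40 and 7.06 (log2 -0.09 ± 0.25, SE, limma adjusted p = 0.858). Its sign turned positive without control replicate 2 (0.095), without prx-5-labelled replicate 1 (0.070) and with sample weights (0.079). The gene ptr-8, which the naming rule did not pick, stood at 4.73 ± 0.51 and 4.73 ± 0.03 FPKM (SD, n = 3). Over all 16 ptr loci, tested or not, the log2 fold changes ran from -0.23 to 1.54 with a median of 0.23, and 13 were above 0. Over all loci the median was 0.05, and 54.7% were above 0. Of the 13 ptr loci above 0, ptr-11 and ptr-8 barely were, at 0.06 and 0.004. The authors' deposited table gave them log2 fold changes of -0.01 and -0.14.

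**Figure D2:**
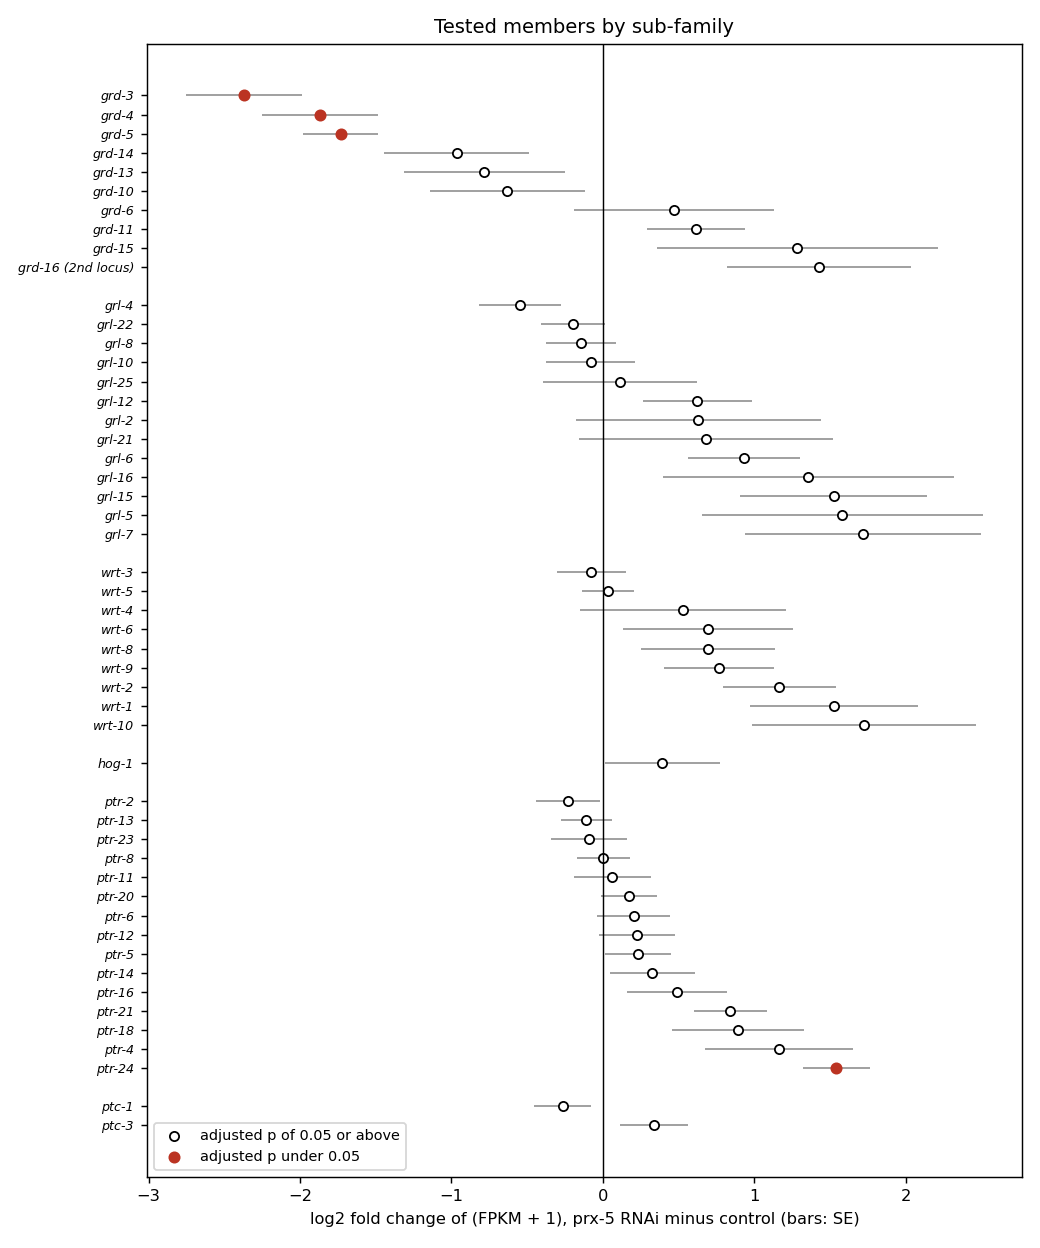
Log2 fold change of (FPKM + 1), prx-5-labelled minus control, of each of the 50 tested members in order of size within its sub-family, with the SE as a bar and calls in red. The calls are grd-3, grd-4 and grd-5 on the left and ptr-24 on the right, and the widest bars belong to grl and grd members such as grl-16 and grd-15.

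Many warthog and ground-like genes differed widely among the control libraries. Control replicate 2 was at least 2-fold above both other control libraries in 7 of 9 wrt loci, 9 of 16 grl loci, 7 of 13 grd loci, 4 of 16 ptr loci, 0 of 2 ptc loci and in hog-1. That makes 28 of 57 members, 49.1%, against 11.4% of all 14786 loci used. In 30 of 57 members (52.6%), control replicates 1 and 3 were the 2 lowest of the 6 libraries, which held for 18.2% of all loci. These counts were made after the values were seen and are given as a description of the libraries.

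Among the ground-like genes, grl-7 had 1.97, 16.3 and 0.927 FPKM in control replicates 1, 2 and 3 and 9.25, 14.3 and 21.5 in the prx-5-labelled libraries. The gene grl-5 had 1.48, 16.3 and 0.340 FPKM in control libraries and 4.84, 15.9 and 14.6 in the prx-5-labelled ones. For grl-15 the FPKM were 1.25, 8.19 and 0.896 against 5.28, 10.1 and 12.4. In these genes control replicate 2 was 8.23-, 11.1- and 6.53-fold above the next control library. It lay within the prx-5-labelled range in grl-7 and grl-15 and above it in grl-5. The log2 fold changes were 1.72 ± 0.78, 1.58 ± 0.93 and 1.52 ± 0.62 (SE), none past the test (limma adjusted p = 0.258, 0.380 and 0.207). The more abundant grl-16, outside the rule for named genes, had 7.90, 59.7 and 2.64 FPKM in control libraries and 17.3, 35.7 and 48.3 in the prx-5-labelled ones. Here control replicate 2 was the highest of all 6 libraries (log2 1.36 ± 0.96, SE, limma adjusted p = 0.463).

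In grl-4, grl-22 and grl-8 control replicate 2 did not reach 2-fold above the other controls. The gene grl-4, the most abundant of them, had 30.5, 46.9 and 29.3 FPKM in control libraries and 18.2, 21.8 and 32.4 in the prx-5-labelled ones (log2 -0.55 ± 0.27, SE, limma adjusted p = 0.295). The gene grl-22 was at 3.11, 3.40 and 2.28 against 2.60, 2.32 and 2.28 FPKM (limma adjusted p = 0.633). The gene grl-8 was at 1.83, 1.66 and 1.76 against 1.16, 1.38 and 2.02 FPKM (limma adjusted p = 0.751). Over all 16 grl loci the median log2 fold change was 0.64, with 11 above 0, against 0.05 and 54.7% for all loci. The range was from -0.55 to 1.72, and 3 grl loci lay under the limit of 1 FPKM.

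Of the warthog genes, wrt-10 (chromosome II) was at 3.86, 24.1 and 3.19 FPKM in control libraries and at 13.7, 24.6 and 48.2 in the prx-5-labelled ones. Control replicate 2 was level with prx-5-labelled replicate 2, and the log2 fold change was 1.73 ± 0.74 (SE, limma adjusted p = 0.232). In the authors' deposited table wrt-10 was significant (log2 1.32, q = 0.0117). Its neighbour wrt-1, on the opposite strand with 15 bases between the annotated genes, had 1.005, 6.85 and 1.12 FPKM against 5.46, 8.69 and 11.8 (log2 1.53 ± 0.55, SE, limma adjusted p = 0.163). The tables give wrt-1 and wrt-10 the same locus, from 7531298 to 7534421, and whether reads were assigned by strand is not given in the sources used here, so the likeness of the 2 genes is uncertain. The gene wrt-2 had 1.03, 2.94 and 0.612 FPKM in control libraries and 3.02, 5.14 and 4.91 in the prx-5-labelled ones. It was the 1 warthog gene whose groups did not overlap (log2 1.17 ± 0.38, SE, limma adjusted p = 0.116).

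In wrt-5 and wrt-3 control replicate 2 did not stand above the other controls. In wrt-4, wrt-6, wrt-8 and wrt-9, with means from 1.12 to 3.15 FPKM, it stood 3.41- to 19.6-fold above them. The gene wrt-5, which is required for viability, was at 22.7, 20.4 and 16.5 FPKM in control libraries and 20.2, 18.7 and 22.0 in the prx-5-labelled ones, the highest mean of the sub-family. Its log2 fold change was 0.03 ± 0.17 (SE, limma adjusted p = 0.929) and turned negative under the 3 other scalings. The gene wrt-3 was at 2.69, 3.19 and 3.20 against 2.47, 2.2999 and 3.83 FPKM (log2 -0.08 ± 0.23, SE, limma adjusted p = 0.873). The median over all 9 wrt loci was 0.69, with 8 above 0, wrt-5 among them. Over all loci used the median was 0.05, with 54.7% above 0. The single hog gene, hog-1, was low, at 1.35, 3.33 and 0.855 FPKM in control libraries and 1.54, 2.87 and 3.36 in the prx-5-labelled ones (log2 0.39 ± 0.38, SE, limma adjusted p = 0.594).

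**Figure D3:**
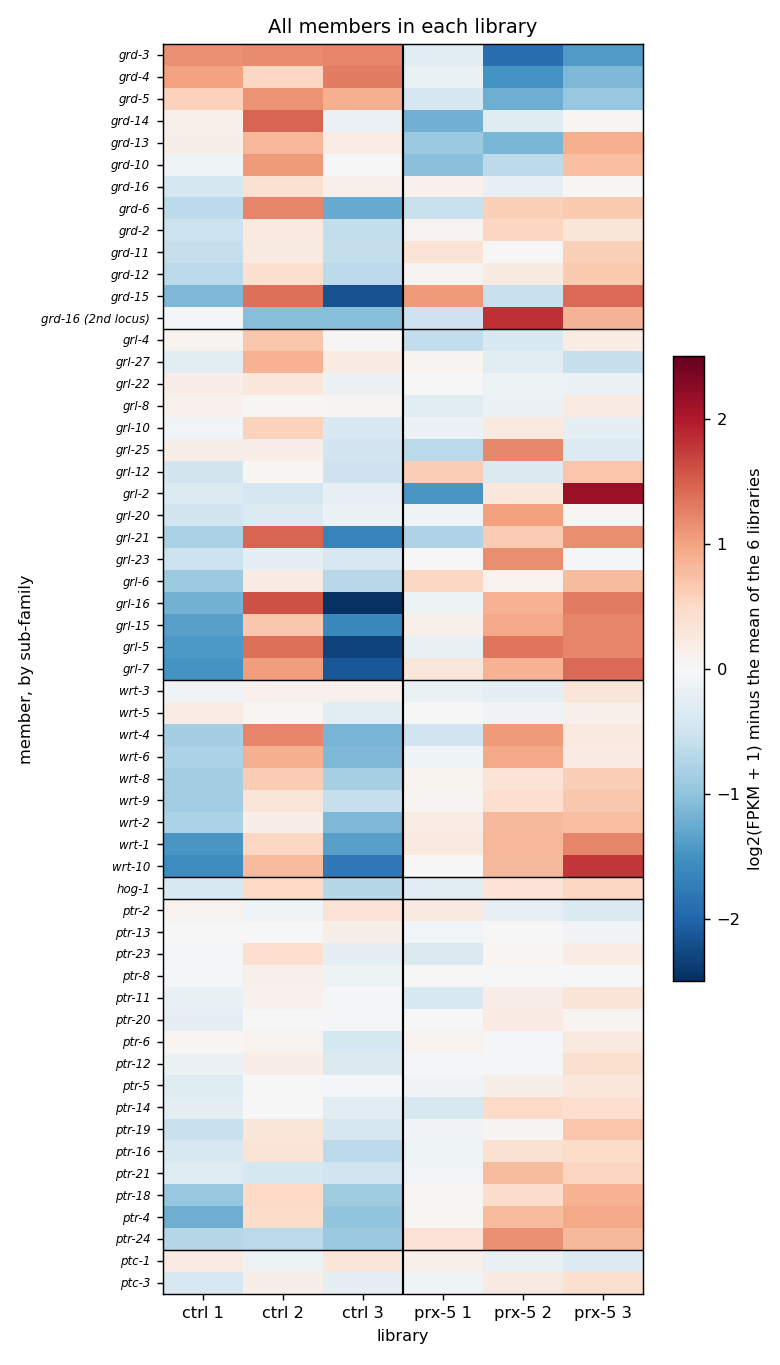
All 57 member loci (rows, by sub-family) in the 6 libraries (columns), as log2(FPKM + 1) minus the mean of the row, red above and blue below. The first 3 rows, grd-3, grd-4 and grd-5, are high in all control libraries, while most wrt rows and the lowest grl rows are blue in control replicates 1 and 3 and red in control replicate 2 and the prx-5-labelled libraries 2 and 3.

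Among the fits that left out 1 library, grl and wrt members were called only without control replicate 2. The ptr and ptc calls rose from 1 to 2 in that fit, as they did without prx-5-labelled replicate 1. With control replicate 2 left out, 9 of 49 tested members were called higher, against 5.97% of 13210 loci, and 3 were called lower, against 0.583%. The 9 were grl-5, grl-7, grl-15, grl-16, wrt-1, wrt-2, wrt-10, ptr-4 and ptr-24, with log2 fold changes from 1.54 in wrt-2 to 2.67 in grl-7 and in grl-5. The 3 lower genes were grd-3, grd-4 and grd-5, as with all libraries. In this fit the control group had 2 libraries, and 8 of the 9 higher genes were not called with all 3. Control replicate 2 was the highest control library in 45 of 57 members (78.9%), against 38.2% of all loci. Leaving it out therefore had to lower the control mean in a larger share of members than of all loci. The shares called in this fit are thus not a test of the members.

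Other genes tied to Hedgehog-type signalling were not called. Of 15 measured genes of an 18-gene list of related factors, 14 were tested and 0 passed the limma test in either direction (4 had an unadjusted p under 0.05). So few genes cannot be told apart from the 8.69% called over all tested loci. Of the 15, 13 had a log2 fold change above 0, against 54.7% of all loci. The quahog gene qua-1, a Hedgehog-related gene needed for moulting, had 1.22, 8.70 and 0.894 FPKM in control libraries and 5.04, 10.8 and 18.8 in the prx-5-labelled ones (log2 1.70 ± 0.69, SE, limma adjusted p = 0.210). The gene hhat-1, named for the acyltransferase that adds a lipid to Hedgehog, had 0.486, 2.71 and 0.472 FPKM against 2.32, 3.36 and 3.995. Its log2 fold change was 1.05 ± 0.41 (SE, limma adjusted p = 0.187). The cholesterol transporter gene ncr-1 had 1.99, 2.97 and 2.49 against 3.77, 9.09 and 8.14 FPKM, without overlap (log2 1.14 ± 0.32, SE, limma adjusted p = 0.0787). Two-sided limma gave gpn-1 and lon-2, also higher without overlap, adjusted p of 0.159 and 0.292. The Dispatched-related gene che-14 was low in all libraries, at 0.960 ± 0.33 and 1.67 ± 0.32 FPKM without overlap (SD, n = 3, limma adjusted p = 0.339). The Patched-related gene daf-6 lay under the limit of 1 FPKM, with 0.691 ± 0.26 and 1.13 ± 0.50 FPKM (SD, n = 3). The Gli-type transcription factor gene tra-1 had 3 rows on 1 locus span, of which the highest had 10.3 ± 1.56 and 11.3 ± 0.41 FPKM (SD, n = 3, log2 0.13 ± 0.17 SE, limma adjusted p = 0.699). The other rows of tra-1 went down without a call. They had 4.51 ± 4.19 and 1.72 ± 0.41 FPKM (log2 -0.78 ± 0.49 SE, limma adjusted p = 0.411) and, without overlap, 2.48 ± 0.53 and 1.32 ± 0.54 FPKM (log2 -0.60 ± 0.26 SE, limma adjusted p = 0.235).

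Some genes of the cuticle and of moulting, like most warthog genes, were lowest in control replicates 1 and 3. These were the 2 lowest libraries in 4 of 8 epidermis and cuticle markers and 8 of 15 moulting genes. The same held for 7 of 9 wrt loci and 18.2% of all loci. The cuticle collagen rol-6 had 2.99, 28.5 and 0.672 FPKM in control replicates 1, 2 and 3 and 10.7, 29.8 and 61.5 in the prx-5-labelled libraries. The moulting gene mlt-8 had 5.45, 23.9 and 3.26 FPKM in control libraries and 14.3, 25.3 and 28.9 in the prx-5-labelled ones. Control replicate 2 was at least 2-fold above both other controls in 6 of 8 epidermis and cuticle markers and in 6 of 15 moulting genes. The test called 0 of the 15 moulting genes (5 at an unadjusted p under 0.05) and 1 of the 8 epidermis markers, col-19, which fell. The adult collagen col-19 was instead higher in all control than in all prx-5-labelled libraries, as grd-3 was, with 1035, 964 and 992 FPKM in control libraries and 354, 278 and 249.7 in the prx-5-labelled ones. The summed moulting list ran from 94.6 to 151 FPKM in control libraries and from 125 to 192 in the prx-5-labelled ones. The summed epidermis and cuticle list, to which col-19 contributed most, ran from 1045 to 1533 and from 609 to 927 FPKM. The part of these genes in the values of the grd, grl and wrt members was not tested. Of 9 measured regulators of epidermal fate, 8 were tested and 0 were called (3 at an unadjusted p under 0.05). This list and the moulting and epidermis lists are too short to be told apart from the 8.69% called over all tested loci. The regulator nearest to a call was blmp-1, at 1.74, 2.45 and 1.75 against 3.59, 7.89 and 7.11 FPKM (limma adjusted p = 0.0501). The regulator bro-1 was not tested, at 0.372 ± 0.32 and 1.30 ± 0.57 FPKM (SD, n = 3).

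Other cell types in which members are known had few calls. Lists this short cannot be told apart from the 8.69% called over all tested loci. Of 7 glia markers, 6 excretory duct and pore markers and 5 tested early embryo markers, 0 passed the limma test, with 2, 2 and 2 at an unadjusted p under 0.05. Of 10 neuron markers, 1 rose, unc-64 (20.3 ± 0.37 to 35.8 ± 6.84 FPKM, SD, n = 3, limma adjusted p = 0.0421). Of 7 muscle markers, 0 were called (2 at an unadjusted p under 0.05). Tested or not, 4 of 7 glia, 5 of 6 excretory duct and pore and 5 of 8 early embryo markers had a log2 fold change above 0. The same held for 10 of 10 neuron and 2 of 7 muscle markers, and for 54.7% of all loci. In these lists the summed level ran from 12.5 to 18.4 FPKM in control libraries and from 13.8 to 26.2 in prx-5-labelled libraries for glia. For the excretory duct and pore it ran from 160.2 to 179 and from 146 to 175 FPKM. That sum was led by 1 gene, egg-6, and says little of the other markers of the list. The gene egg-6 had 150, 125 and 168 FPKM in control libraries and 150, 111 and 99.2 in the prx-5-labelled ones.

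**Figure D4:**
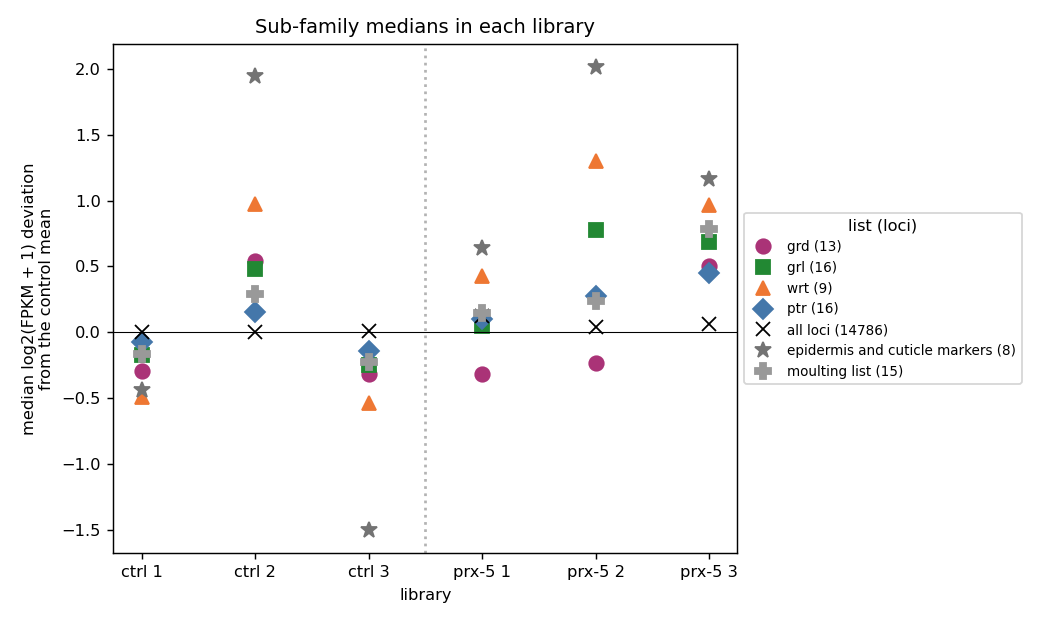
Median deviation of log2(FPKM + 1) from the control mean in each library, over all loci of 4 sub-families, the epidermis and cuticle markers, the moulting list and all loci used. In control replicate 2 the wrt median is 0.97 and the grl median 0.48. In prx-5-labelled replicates 1, 2 and 3 the wrt median is 0.43, 1.30 and 0.97 and the grl median 0.05, 0.77 and 0.69. All loci stay at or near 0.

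By library, the wrt median deviation from the control mean was -0.49, 0.97 and -0.54 in control replicates 1, 2 and 3 and 0.43, 1.30 and 0.97 in prx-5-labelled replicates 1, 2 and 3. The grl median was -0.17, 0.48 and -0.24 in control libraries and 0.05, 0.77 and 0.69 in the prx-5-labelled ones. The grd median was -0.30, 0.54 and -0.32 in control libraries and -0.32, -0.23 and 0.50 in the prx-5-labelled ones. The ptr median ran from -0.14 to 0.45. By summed FPKM the grd genes held 393, 551 and 436 in control libraries and 179, 113 and 189 in the prx-5-labelled ones, a sum led by grd-3 and grd-5.

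Over the whole set, 7 members had a mean under 1 FPKM, 36 between 1 and 10, and 14 at 10 or above. The highest means over the 6 libraries were those of grd-3, ptc-1, ptr-2 and grd-5, at 124.9, 122, 104 and 97.4 FPKM. Loci were often incomplete. In 13 members the locus covered under 50% of the annotated gene, among them wrt-2, wrt-3, grl-5 and grl-20, and 14 loci overlapped another protein-coding gene. In the authors' deposited table, 4 members were significantly higher, wrt-10, ptr-4, ptr-21 and ptr-24, and 4 lower, grd-3, grd-4, grd-5 and grd-14. Over all loci used, that table called 9.06% higher and 4.41% lower.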

How the data were processed

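Per the submitters' processing notes, CASAVA, Bowtie, Cufflinks and Cuffdiff were used, without versions or roles. Build, annotation, filters and strand were not given in the sources used here. The authors deposited FPKM per library and a comparison table with group FPKM, log2 fold changes, scores (test statistics), p-values and q-values (per the file headers). Tables were joined by row. Of 15796 loci, 913 with differing labels were left out. A further 97 were left out because the authors' group FPKM were missed by over 2% when rebuilt from the libraries with 1 constant each. This left 14786. Where the status read FAIL or HIDATA, the value was treated as missing (33 values, 0 in members). Coordinates (starts moved to counting from 1) matched WBcel235, where 15112 of 15397 loci with a known identifier overlapped their gene.

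Log2 values were taken of FPKM + 1. Loci reaching a mean of 1 FPKM were fitted with limma 3.58.1 in R 4.3.3 (variance trend, two-sided, Benjamini-Hochberg over all tested loci). In data simulated with the measured spread, where 13026 loci were tested, 25.0% of loci changed by 1 and 69.2% of those changed by 2 on the log2 scale were called. These were 96 and 91 tested loci, changed in both directions with independent noise in each library, and 7 unchanged loci were called. Far more loci were called in the measured libraries, which also differed within groups, so these rates need not hold there. Medians over a sub-family use a fit without the limit, so that no member is missing. Members, lists and tests were chosen with earlier results of these data known. Members with a value in each library were those called, the 3 largest rises and falls and the highest level of each sub-family, and ptc-1, ptc-3, hog-1, wrt-10 and grl-21, 27 in all. The genes grd-10, grd-13, grd-14, grl-16, ptr-8 and ptr-21, and single genes of the lists, were added after their values were seen. Nothing in the labels used here says that the biological replicates came from separate cultures, so p-values measure the spread between these samples. Sequences were not used here.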

Additional observations from a re-analysis of the deposited data

How the results depend on the processing

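The calls of grd-3, grd-5 and ptr-24 held under pseudocounts of 0.1 and 0.5, no filter, a minimum of 5 FPKM, 3 other scalings, no variance trend, sample weights, the replicate block and all loci as listed. The call of grd-4 was lost with quantile normalization (adjusted p = 0.0535), and the gene was not tested at 5 FPKM. With the replicate block, 1253 loci were called (1160 without), and the members called were 1 higher and 3 lower, as without the block. Whether same-numbered libraries were paired was not settled. Deviations within a group cancel out, so the correlations below depend on each other and cannot decide it. Deviations of same-numbered libraries from their group correlated at 0.29, 0.23 and -0.12 (across 13337 loci, which are not independent), and control replicates 2 and 3 correlated best with another number. The whole table fell to 698 calls with median-ratio scaling, 770 with quantile normalization and 714 with the authors' constants. These scalings moved the median log2 fold change of all loci from 0.04 to -0.07, -0.10 and -0.08, and the share of lower among all calls rose, with 186, 239 and 192 lower. Sample weights called 5217 of 13347 tested loci (39.1%), with 3206 higher and 2011 lower. Among the 50 tested members they called 20 higher and 4 lower. The 20 were 1 grd (the second grd-16 locus), 5 grl, 7 wrt and 7 ptr or ptc loci. The 4 were grd-3, grd-4, grd-5 and ptc-1. The ptr and ptc calls were 8 in all. The cause was not tested.

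Leaving out 1 library gave 78 to 1848 calls in the table, 0 to 9 members higher and 0 to 3 lower. By sub-family it gave 0 to 4 grd, 0 to 4 grl, 0 to 3 wrt and 0 to 2 ptr and ptc calls, in fits with fewer samples. The 4 grd calls, without prx-5-labelled replicate 1, were grd-3, grd-4 and grd-5 lower and the second grd-16 locus higher. Of the 27 members named by the rule, 3 that were not called turned their sign. For wrt-5 the log2 fold change was -0.077 with median-ratio scaling, -0.21 with quantile normalization, -0.097 with the authors' constants and -0.12 with sample weights, and it ran from -0.087 to 0.13 when 1 library was left out (negative without control replicate 3 or prx-5-labelled replicate 3). For ptr-23 it was 0.079 with sample weights and ran from -0.24 to 0.095 when 1 library was left out (positive without control replicate 2 or prx-5-labelled replicate 1). For wrt-3 it ran from -0.25 to 0.028, positive without prx-5-labelled replicate 2. Of 448 values of named members under the alternatives, 404 kept their sign and their side of the threshold. Members near 1 FPKM rest on few reads, and the pseudocount understates their fold changes.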
